A study of Mus musculus with 6 samples.

Results

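Interferon-stimulated genes were followed here as a group of 40 named genes in newborn mouse eyeballs, of which 36 were measured among 12393 genes with a probe set of their own. The 40 genes were chosen by name, from families known to respond to interferons, but with earlier results of these data at hand. Shares of members set beside shares of all genes are read with that limit. Each gene was read on 1 probe set, the brightest on average over all arrays among those that name this gene alone. Isg15, Ddx58, Ifi44 and Xaf1 had no such probe set and were not analysed here. RNA came from whole eyeballs at postnatal day 1, from 3 Brg1 cKO and 3 wild-type pups of a mixed background, with 1 array per individual eyeball. Brg1 cKO pups carried 2 floxed alleles of Brg1 (Smarca4), the ATPase of SWI/SNF chromatin remodeling complexes, and the Le-Cre transgene, whose Cre acts in head surface ectoderm, the source of the lens and the surface of the eye. The labels call the controls wild type. Elsewhere the study used littermates with floxed alleles and no Cre as controls, and it found incomplete deletion in many mutant embryos. No array of pups with Le-Cre alone was analysed here, so effects of the transgene and of the loss of Brg1 cannot be told apart.

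Interferons are secreted proteins that set cells into an antiviral state. Type I interferons act through the receptor chains Ifnar1 and Ifnar2, and a complex that holds Stat2 and Irf9 then binds a promoter sequence named the interferon-stimulated response element (ISRE). Interferon gamma, made by T and NK cells, acts through Ifngr1 and Ifngr2 and on another promoter sequence, the gamma-activated site (GAS). Mx, Oas and Ifit genes are classic targets of type I interferons, while guanylate-binding proteins, immunity-related GTPases and Cxcl9 respond strongly to interferon gamma. The groups overlap, since many of these genes respond to both kinds of interferon.

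Sequences upstream of the members are shown first, because both promoter elements are known from genes of this group. The RefSeq promoter table of build GRCm38.p6 held a start for 26 of the 36 measured members. In the 250 bases before these starts, the ISRE core, GAAA and GAAA with any 2 bases between them, was searched on both strands, together with the GAS core TTCNNNGAA, which reads the same on both strands. The ISRE core was found in 12 of 26 members (46.2%) and in 3.46% of all 27025 genes of the table. The GAS core was found in 6 of 26 members (23.1%) and in 8.13% of all genes. The cores did not follow the kind of interferon. Of Oas and Ifit members with a start, 3 of 6 held the ISRE core and 2 of 6 the GAS core. Of guanylate-binding proteins, immunity-related GTPases and Cxcl9, 4 of 6 held the ISRE core and 1 of 6 the GAS core. Of the members, 3 held both cores (Oas1a, Bst2 and Igtp) and 11 held neither. A match is a description of the letters in this window and shows no binding.

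The following stretches are examples from several roles, written 5′ to 3′ along the gene's strand, with the ISRE core in capitals, which reads TTTC and TTTC where it lies on the opposite strand. Rsad2, Ifit1 and Oas1a are antiviral effectors, Cxcl10 is a chemokine, Stat2 is a transcription factor of the pathway, and Gbp2 and Irgm1 are GTPases of the interferon gamma class. The capitals in the last line mark the GAS core of Igtp, and its ISRE core follows a few bases downstream.
Rsad2 (chr12:26456543-26456592, minus strand): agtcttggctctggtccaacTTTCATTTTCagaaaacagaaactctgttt
Ifit1 (chr19:34640765-34640814, plus strand): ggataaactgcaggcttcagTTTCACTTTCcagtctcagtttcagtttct
Oas1a (chr5:120907526-120907565, minus strand): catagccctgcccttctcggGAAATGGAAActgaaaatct
Cxcl10 (chr5:92349073-92349122, minus strand): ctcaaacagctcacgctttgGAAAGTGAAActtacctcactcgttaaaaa
Stat2 (chr10:128270256-128270305, plus strand): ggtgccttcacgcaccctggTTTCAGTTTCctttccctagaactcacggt
Gbp2 (chr3:142620584-142620633, plus strand): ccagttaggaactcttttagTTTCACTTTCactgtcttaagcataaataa
Irgm1 (chr11:48871421-48871470, minus strand): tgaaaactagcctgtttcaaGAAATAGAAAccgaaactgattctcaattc
Igtp (chr11:58199491-58199539, plus strand): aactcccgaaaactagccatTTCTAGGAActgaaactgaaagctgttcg

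**Figure D1:**
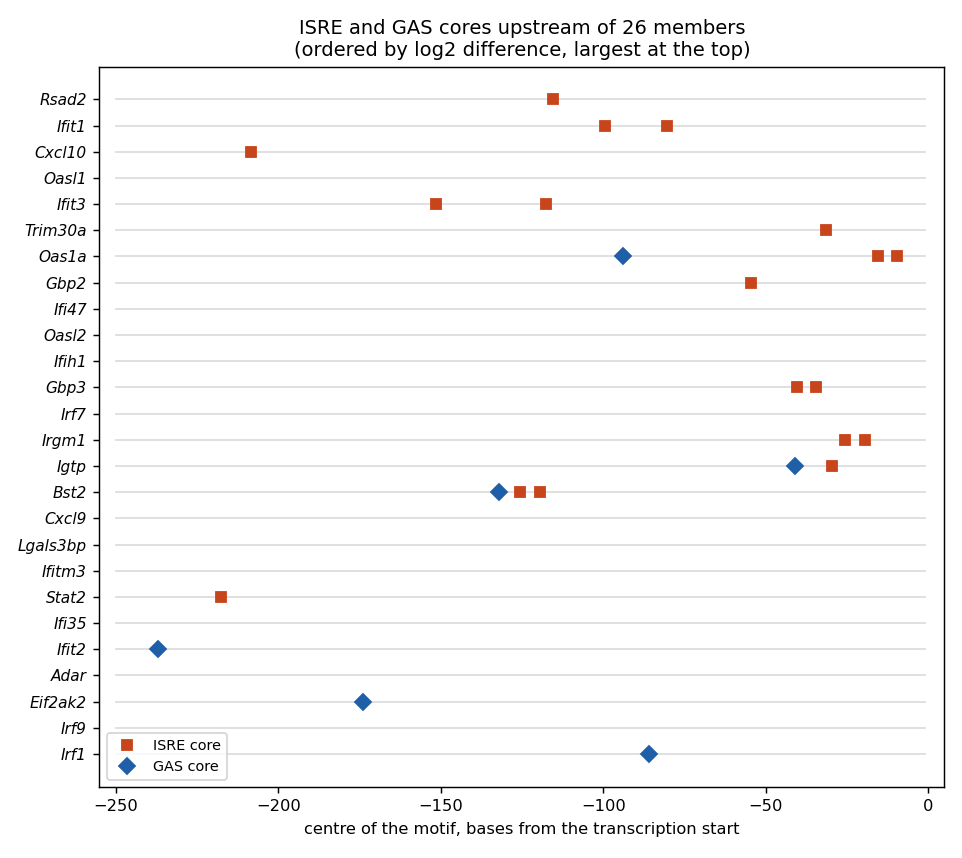
Positions of ISRE cores (squares) and GAS cores (diamonds) in the 250 bases before the transcription start of the 26 members with a start in the RefSeq table. The horizontal axis gives the centre of each match in bases from the start, genes are ordered by their log2 difference between Brg1 cKO and wild type with the largest at the top, and for genes with several starts the matches of all starts are drawn on 1 line.

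Members with an ISRE core had a median log2 difference, Brg1 cKO minus wild type, of 2.19 (range 0.88 to 3.76, 12 genes), and members without one had a median of 1.04 (range 0.33 to 3.11, 14 genes). These ranges overlap widely. Oasl1, without a core in this window, lay at 3.11, and Stat2, with one, lay at 0.88.

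All 36 measured members had higher means in Brg1 cKO than in wild-type eyeballs, where 52.9% of all genes did. The median log2 difference over the members was 1.81, or 3.52-fold, beside 0.02 over all genes, and single members lay between 0.33 (Irf1) and 4.05 (Mx1). A difference above 2-fold was found for 28 members and one above 4-fold for 15. Mx1 was the only member that passed the limma adjusted p of 0.05 over all 22626 probe sets, 1 of 36, where 0.428% of all genes were called higher. Lower calls numbered 0 of 36, where 0.266% of all genes were called lower. By the study's own selection rule, a correlation with the genotype template at p under 0.05 and a fold over 1.5, 11 of 36 members (30.6%) were higher, where 2.53% of all genes were, and 0 were lower, beside 1.84% of all genes. An unadjusted limma p under 0.05 was found for 24 members, all higher, and for 5.56% of all genes in that direction. The study's rule was recomputed here on the probe set chosen for each gene, and it called far fewer genes than the study reports. The reason was not tested, and all counts given under this rule are those of the recomputation. The rule is not adjusted for multiple tests. Its count was 3 without wild-type replicate 1, wild-type replicate 2 or Brg1 cKO replicate 3 (1.55%, 1.44% and 3.19% of all genes) and 7 without wild-type replicate 3 (2.01%). Leaving out Brg1 cKO replicate 2 gave 12 (2.29%), and leaving out replicate 1 of that group gave 14 (2.85%). All 3 Brg1 cKO values lay above all 3 wild-type values in 22 of 36 members (61.1%), which was the case in 8.46% of all genes. The reverse held for 0 members and 6.38% of all genes. In bulk RNA, more cells of a type and more RNA per cell cannot be told apart.

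**Figure D2:**
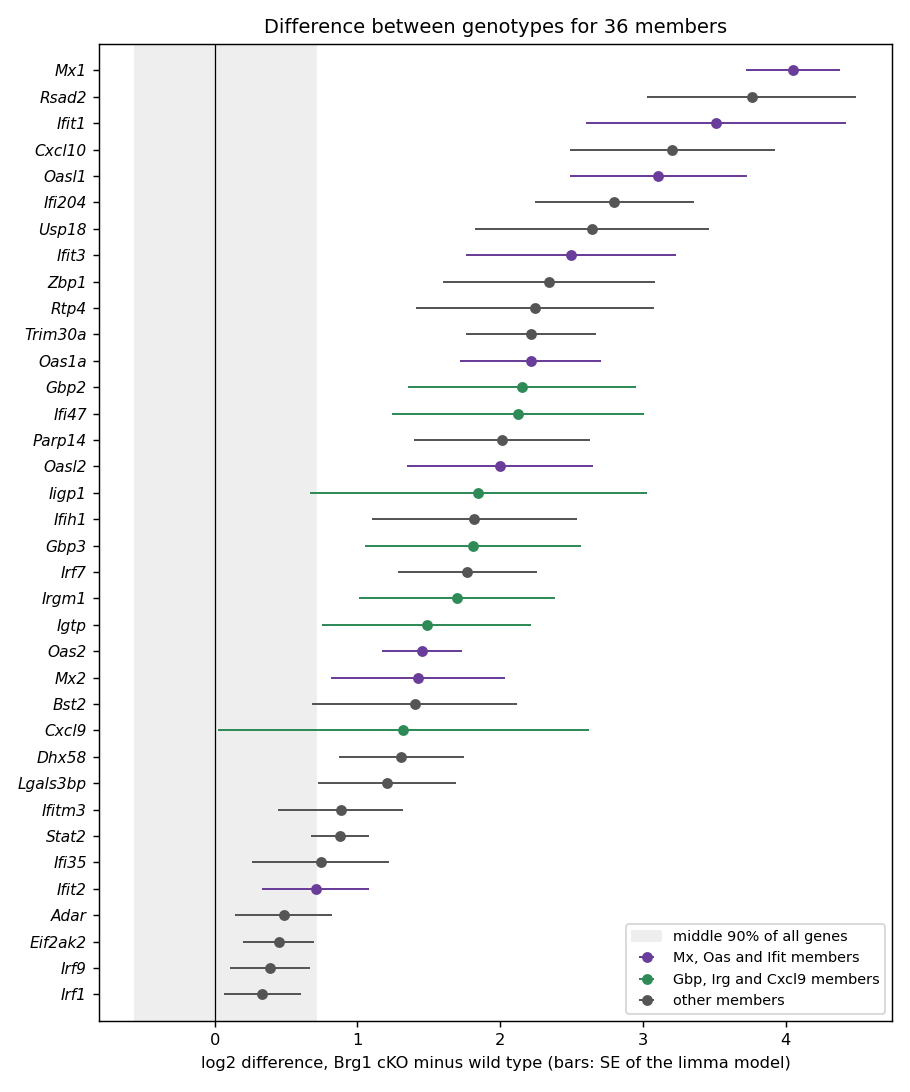
Log2 difference between Brg1 cKO and wild-type eyeballs for each of 36 members, with points for the estimate and bars for the SE of the limma model. Colours give the class of each gene, and the grey band spans the middle 90% of all 12393 genes, from -0.55 to 0.71. All points lie above 0, from 0.33 for Irf1 to 4.05 for Mx1.

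Antiviral effectors act on viral RNA, proteins or particles inside the cell. Mx1 encodes a dynamin-like GTPase that blocks viruses such as influenza. It read 4.33, 4.33 and 4.75 in the wild-type arrays (log2 intensity, replicates 1 to 3 in order here and below) against 7.85, 9.14 and 8.57 in Brg1 cKO. The groups lay more than 3 log2 units apart, and wild-type values were near the low end of the scale, read here as the 25th percentile of all values, log2 4.84. Mx1 rose 16.6-fold (log2 4.05, SE 0.33, limma adjusted p = 0.00487, n = 3 per group), and its fold is uncertain because of the dim wild-type values. It passed in every fit with 1 array left out, with adjusted p from 0.00277 to 0.0492. It did not pass when 64 was added to all intensities before log2, with an adjusted p of 0.148. Mx2, the cytoplasmic relative, read 2.52, 2.56 and 2.85 in wild type against 3.22, 5.65 and 3.35 in Brg1 cKO, so that only Brg1 cKO replicate 2 was clearly above the low end.

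Rsad2, whose product viperin makes a chain-terminating nucleotide, read 5.93, 6.45 and 8.67 in wild type against 9.86, 11.52 and 10.96 in Brg1 cKO. The third wild-type array was more than 2 log2 units above the others and still below every Brg1 cKO array. The difference was 3.76 (SE 0.73, limma adjusted p = 0.118), and without wild-type replicate 3 it was 4.59 with an adjusted p of 0.0448. Ifit genes encode proteins that bind viral RNA. Ifit1 read 3.72, 3.46 and 5.23 in wild type against 6.0, 9.68 and 7.27 in Brg1 cKO, a difference of 3.51 (SE 0.91, adjusted p = 0.262) that was 2.5 without Brg1 cKO replicate 2. Ifit3 read 6.79, 7.07 and 7.46 in wild type against 8.67, 11.50 and 8.63 in Brg1 cKO. The groups of both genes did not overlap, and Brg1 cKO replicate 2 was the highest by far. Ifit3 differed by 2.5 (adjusted p = 0.354), and without that array by 1.55, with an adjusted p of 0.0483, since the remaining Brg1 cKO arrays were close to each other. Ifit2 was the exception in the family, with 6.92, 7.37 and 7.83 in wild type against 7.43, 8.75 and 8.07 in Brg1 cKO and overlapping groups.

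The oligoadenylate synthetases make the signal that activates RNase L, and Oasl1 and Oasl2 are relatives of them. Oas1a read 5.27, 5.29 and 6.05 in wild type against 6.96, 8.89 and 7.4 in Brg1 cKO. Oas2 read 4.69, 4.36 and 5.05 in wild type against 5.90, 5.92 and 6.64 in Brg1 cKO, and was the only member whose highest Brg1 cKO value was not in replicate 2. Oasl1 read 3.18, 3.40 and 4.33 in wild type against 5.48, 8.02 and 6.73 in Brg1 cKO. In these 3 genes no Brg1 cKO value reached down to the wild-type range, and all 3 passed the study's rule. Oas2 differed by 1.45 (SE 0.28, limma adjusted p = 0.112). Oasl1 differed by 3.11 (SE 0.62, adjusted p = 0.126), by 2.47 without Brg1 cKO replicate 2, and passed without Brg1 cKO replicate 1, at an adjusted p of 0.0407. Oasl2 lay at 5.06, 4.96 and 5.74 in wild type and at 6.01, 8.81 and 6.95 in Brg1 cKO, again without overlap.

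The remaining effectors had differences between 0.45 and 1.40. Bst2, or tetherin, which holds virus particles at the cell surface, read 5.74, 5.82 and 6.71 in wild type against 6.36, 9.25 and 6.86 in Brg1 cKO. Ifitm3, which blocks virus entry from endosomes, read 11.46, 10.98 and 11.33 in wild type against 11.18, 13.03 and 12.21 in Brg1 cKO. In both genes Brg1 cKO replicate 1 lay within the wild-type range. Adar, an RNA-editing enzyme, differed by 0.48 (95% interval of the limma model -0.32 to 1.29), and Eif2ak2, the kinase PKR that halts translation on double-stranded RNA, by 0.45 (-0.13 to 1.03). Adar read 5.15, 4.72 and 5.61 in wild type against 5.19, 6.28 and 5.45 in Brg1 cKO, and Eif2ak2 lay between 7.48 and 7.77 in wild type and at 7.80, 8.59 and 7.86 in Brg1 cKO. Of the 14 effectors, 6 passed the study's rule and 10 had groups without overlap, beside 2.53% and 8.46% of all genes in that direction.

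**Figure D3:**
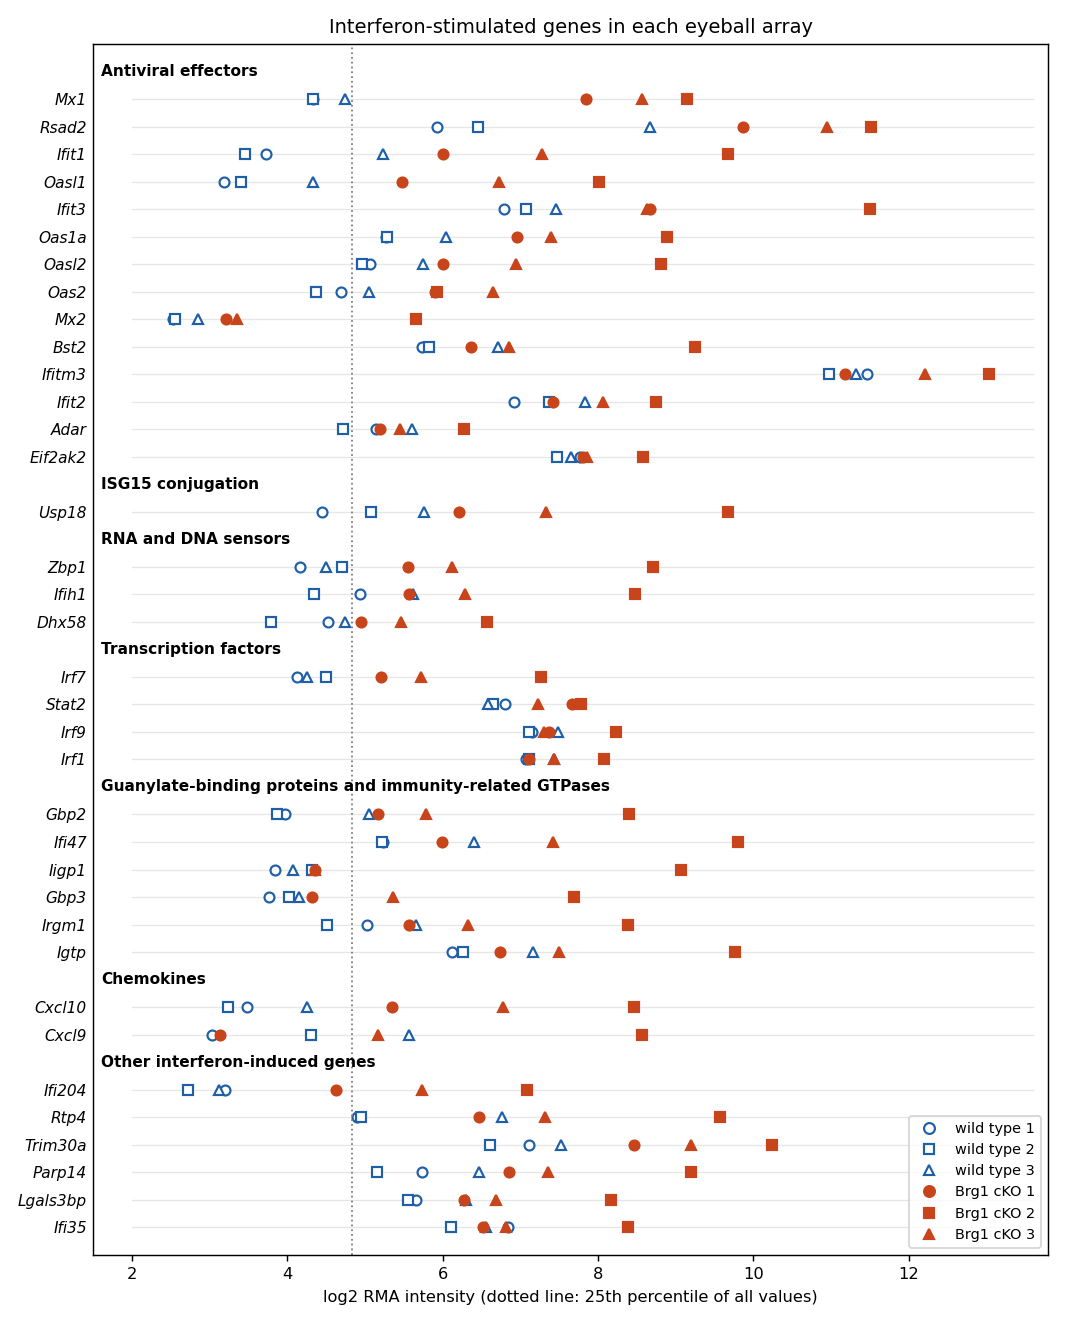
Log2 RMA intensity of each measured member in each array, with open blue symbols for wild type and filled red symbols for Brg1 cKO. Circles, squares and triangles are replicates 1, 2 and 3, genes are grouped by role, and the dotted line marks the 25th percentile of all values. Brg1 cKO replicate 2 is the highest value for 35 of 36 genes when set against the other Brg1 cKO arrays, and wild-type replicate 3 is the highest wild-type value for 28 of 36.

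Usp18 removes the ubiquitin-like protein ISG15 from its targets and restrains signalling of the type I receptor. It read 4.45, 5.08 and 5.77 in wild type against 6.22, 9.67 and 7.33 in Brg1 cKO, a difference of 2.64 (SE 0.82, limma adjusted p = 0.398) without overlap, and of 1.68 when Brg1 cKO replicate 2 was left out. Among the sensors of foreign nucleic acid, Zbp1, which binds nucleic acid in the Z form, read 4.17, 4.70 and 4.5 in wild type against 5.56, 8.71 and 6.12 in Brg1 cKO. Ifih1, the RNA sensor MDA5, read 4.93, 4.34 and 5.62 in wild type against 5.57, 8.48 and 6.29 in Brg1 cKO. Zbp1 separated the groups and Ifih1 did not, because its value in Brg1 cKO replicate 1 was just below that in wild-type replicate 3. Dhx58, or LGP2, which assists that sensor, read 4.52, 3.79 and 4.74 in wild type against 4.94, 6.57 and 5.47 in Brg1 cKO. No sensor passed the study's rule, which 2.53% of all genes passed upward.

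Transcription factors of the pathway showed smaller differences. Irf7, which drives the interferon alpha genes, read 4.13, 4.5 and 4.25 in wild type against 5.21, 7.27 and 5.73 in Brg1 cKO. The difference of 1.77 (SE 0.49, limma adjusted p = 0.301) was 1.17 without Brg1 cKO replicate 2. Stat2 read 6.81, 6.65 and 6.58 in wild type against 7.67, 7.78 and 7.23 in Brg1 cKO, a difference of 0.88 (SE 0.20, adjusted p = 0.193), and was among the steadiest members, since its Brg1 cKO arrays lay within 0.6 log2 units of each other. Both genes passed the study's rule. Irf9, the DNA-binding partner of Stat2, read 7.16, 7.11 and 7.48 in wild type against 7.37, 8.24 and 7.30 in Brg1 cKO. Irf1, a factor of the interferon gamma response, read 7.08, 7.11 and 7.43 in wild type against 7.11, 8.08 and 7.43 in Brg1 cKO. In both of these, replicate 2 was the only Brg1 cKO array more than 0.01 above the wild-type range.

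Guanylate-binding proteins and immunity-related GTPases attack the vacuoles in which bacteria and parasites live. Gbp2 read 3.97, 3.86 and 5.05 in wild type against 5.17, 8.4 and 5.78 in Brg1 cKO. Gbp3 read 3.76, 4.02 and 4.16 in wild type against 4.32, 7.70 and 5.36 in Brg1 cKO. Ifi47 read 5.23, 5.22 and 6.40 in wild type against 6.0, 9.80 and 7.43 in Brg1 cKO. In all of these, Brg1 cKO replicate 2 lay more than 2 log2 units above the other Brg1 cKO arrays, while replicate 1 lay close to wild-type replicate 3. Irgm1 read 5.02, 4.51 and 5.66 in wild type against 5.57, 8.38 and 6.33 in Brg1 cKO, and Igtp read 6.12, 6.26 and 7.16 in wild type against 6.73, 9.76 and 7.50 in Brg1 cKO. Iigp1 read 3.84, 4.32 and 4.07 in wild type against 4.36, 9.07 and 4.35 in Brg1 cKO. Its mean difference of 1.85 (SE 1.18, limma adjusted p = 0.76) was therefore made by 1 array, and it was 0.28 without Brg1 cKO replicate 2. Without that array the others differed by 1.18 (Gbp2), 0.86 (Gbp3), 1.1 (Ifi47), 0.89 (Irgm1) and 0.60 (Igtp). With all arrays, differences of the 6 genes lay between 1.49 and 2.15. None passed the study's rule, which 2.53% of all genes passed upward.

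Cxcl9 and Cxcl10 are ligands of the receptor Cxcr3, which activated T cells carry, and they behaved unlike each other. Cxcl10 read 3.48, 3.24 and 4.25 in wild type against 5.35, 8.46 and 6.78 in Brg1 cKO, with every Brg1 cKO value above every wild-type value. Cxcl9 read 3.03, 4.31 and 5.57 in wild type against 3.14, 8.57 and 5.17 in Brg1 cKO, so that the wild-type arrays alone spread over more than 2 log2 units. Cxcl10 differed by 3.21 (SE 0.72, limma adjusted p = 0.182), by 2.41 without Brg1 cKO replicate 2, and passed without Brg1 cKO replicate 1, at an adjusted p of 0.0443. Cxcl9 differed by 1.32 (SE 1.30, adjusted p = 0.85), and without Brg1 cKO replicate 2 the sign turned, to -0.15. Whether the 2 chemokines differ in their response was not tested.

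Of the other induced genes, Ifi204, a nuclear DNA-binding protein of myeloid cells, read 3.20, 2.73 and 3.12 in wild type against 4.63, 7.08 and 5.73 in Brg1 cKO. Trim30a, a regulator of Toll-like receptor signalling, read 7.12, 6.61 and 7.53 in wild type against 8.46, 10.24 and 9.20 in Brg1 cKO. Both passed the study's rule, with no overlap between groups. Ifi204 differed by 2.80 (SE 0.56, limma adjusted p = 0.126), by 2.17 without Brg1 cKO replicate 2, and had an adjusted p of 0.0311 without Brg1 cKO replicate 1. Trim30a differed by 2.22 (SE 0.46, adjusted p = 0.134). Parp14, an ADP-ribosyltransferase, read 5.73, 5.15 and 6.47 in wild type against 6.85, 9.19 and 7.35 in Brg1 cKO, also without overlap. Rtp4, a chaperone of membrane receptors, read 4.90, 4.95 and 6.76 in wild type against 6.47, 9.57 and 7.32 in Brg1 cKO, where wild-type replicate 3 reached above the lowest Brg1 cKO array. Lgals3bp, a secreted protein that binds galectins, differed by 1.21 and Ifi35 by 0.74, and the groups of both overlapped. Lgals3bp lay between 5.55 and 6.30 in wild type and between 6.27 and 8.17 in Brg1 cKO, and Ifi35 between 6.11 and 6.85 and between 6.52 and 8.39.

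A second look at the same genes came from 11 further probe sets of 9 members. All 11 had positive differences, from 0.11 to 3.17, and 0 passed the adjusted p. Rsad2 differed by 3.17 and 0.88 on its other probe sets, Gbp2 by 2.77, Zbp1 by 2.66, Iigp1 by 1.52, Trim30a by 1.42, Rtp4 by 0.78, Stat2 by 0.64 and Eif2ak2 by 0.40. Dhx58 differed by 0.28 and 0.11 on its others. Wild-type means lay under the low end for both of these and for the further probe sets of Gbp2, Zbp1, Iigp1, Trim30a and Rtp4 and the one of Rsad2 at 0.88, so that those differences are uncertain. Wild-type means of 14 of 36 members lay below log2 4.84, and 1 member, Mx2, had a Brg1 cKO mean below it, so that folds of these genes are uncertain. Oas1a, Ifit3, Iigp1 and Ifi204 have close relatives in the mouse genome, and signal from those may be included.

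The arrays formed a graded order that most members shared. Brg1 cKO replicate 2 was the highest Brg1 cKO array in 35 of 36 members, where this was so in 36.6% of all genes, and Brg1 cKO replicate 1 was the lowest in 32, against 28.5% of all genes. Wild-type replicate 3 was the highest wild-type array in 28 members, against 34.9% of all genes. Relative to the wild-type mean, the median shift over members was 0.68, 3.38 and 1.40 in the Brg1 cKO arrays. A wild-type array was set against the mean of the remaining pair, which gave -0.27, -0.41 and 0.68. Set directly against wild-type replicate 3, Brg1 cKO replicate 1 was higher in 22 of 36 members, with a median log2 difference of 0.23, and Brg1 cKO replicate 3 was higher in 33, with a median of 0.81. The median shift over all genes, taken against the wild-type mean or the remaining pair, stayed between -0.03 and 0.07 in the 6 arrays. The SD over 3 arrays was larger in Brg1 cKO than in wild type for 35 of 36 members, with medians of 1.25 and 0.444, and for 66.8% of all genes. For all 14 members whose groups overlapped, the value in Brg1 cKO replicate 1 lay below that in wild-type replicate 3. This was the only crossing pair in 9 of them, and 0 overlaps involved Brg1 cKO replicate 2. Leaving out an array cannot lower the count of members without overlap. The 9 members with this single crossing pair separate of necessity when either of its arrays is left out. Without wild-type replicate 3, 33 of 36 members had groups without overlap, where 13.4% of all genes did. Without Brg1 cKO replicate 1 the count was 32, beside 13.5% of all genes. With replicate 2 of that group left out, which no overlap involved, it could not change and was 22 (14.7% of all genes).

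Single arrays also set the size of the median. It was 1.03 when Brg1 cKO replicate 2 was left out, 2.52 without Brg1 cKO replicate 1 and 1.97 without wild-type replicate 3. The fold of 22 members moved by more than 1.5 times when 1 array was left out, and in 21 of these the largest move came from Brg1 cKO replicate 2. The number of members past the adjusted p of limma was 2 without Brg1 cKO replicate 2 (Mx1 and Ifit3), where 0.629% of all genes were called higher. It was 2 without wild-type replicate 3 (Mx1 and Rsad2), beside 0.178% of all genes, and 4 without Brg1 cKO replicate 1 (Mx1, Oasl1, Cxcl10 and Ifi204), beside 0.694%. The other members that moved by more than 1.5 times, all farthest without Brg1 cKO replicate 2, then had log2 differences of 0.64 (Mx2), 1.22 (Oasl2), 0.52 (Bst2), 0.97 (Ifih1), 1.38 (Zbp1), 1.36 (Rtp4) and 1.32 (Parp14).

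The type I class, with 9 members of the Mx, Oas and Ifit families, and the interferon gamma class, with 7 members of the Gbp and immunity-related GTPase families and Cxcl9, were then set side by side. Median differences were 2.215 and 1.81. The type I class had 5 of 9 members past the study's rule and 8 of 9 without overlap, and the gamma class had 0 of 7 and 3 of 7, beside 2.53% and 8.46% of all genes. By array, Brg1 cKO eyeballs had shifts of 1.43, 3.55 and 1.86 in the type I class and of 0.34, 4.10 and 1.27 in the gamma class. The gamma class was thus the lower one in replicates 1 and 3 and the higher one in replicate 2. Type I minus gamma was 1.09, -0.55 and 0.60 in Brg1 cKO and 0.09, 0.03 and -0.28 in wild type, so that the genotypes overlapped. Wild-type replicate 3 had positive shifts in both classes, of 0.69 and 0.97. The contrast was sharpest in Brg1 cKO replicate 1, where 8 of 9 type I members but 3 of 7 gamma members lay above wild-type replicate 3. Without Brg1 cKO replicate 2 the medians were 1.57 for the type I class and 0.86 for the gamma class, and without Brg1 cKO replicate 1 they were 2.62 and 2.56. The other 20 members had a median of 1.59.

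**Figure D4:**
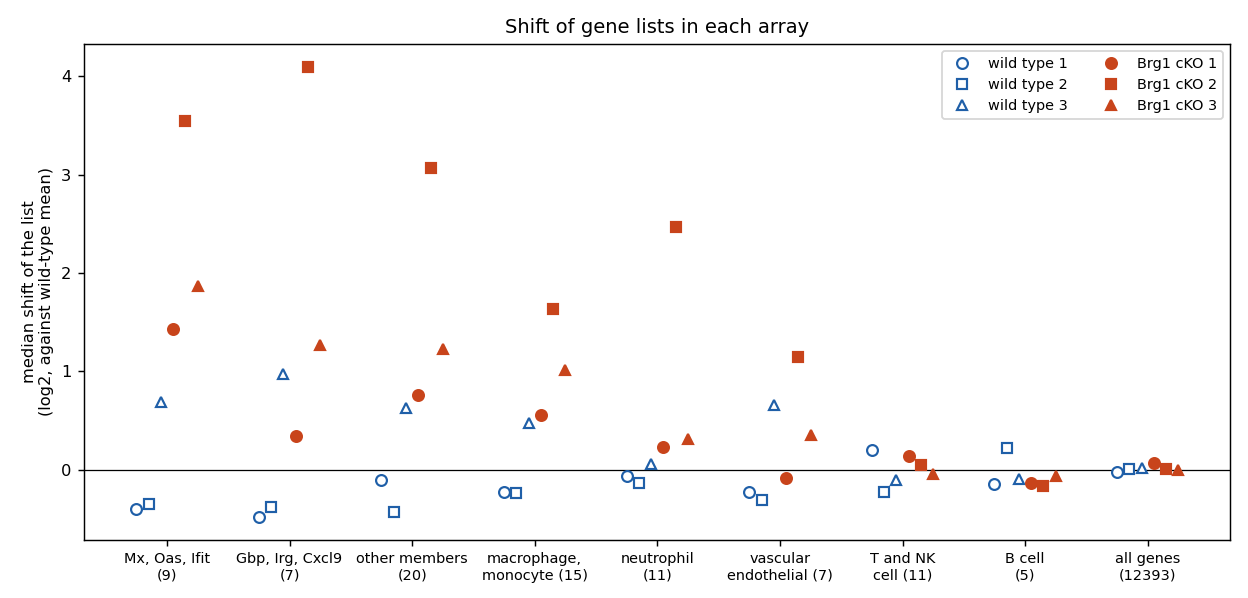
Median shift of gene lists in each array in log2 units, against the wild-type mean for Brg1 cKO arrays and against the mean of the remaining pair for each wild-type array, with the number of measured genes under each list. Open blue symbols are wild type and filled red symbols Brg1 cKO, and circles, squares and triangles are replicates 1 to 3. The interferon classes reach 3.55 and 4.10 in Brg1 cKO replicate 2, where macrophage and neutrophil markers reach 1.63 and 2.47 and T, NK and B cell markers stay near 0.

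Markers of some myeloid cells moved with the members. Of 15 measured macrophage and monocyte markers, all had positive differences with a median of 1.13. Cd14, the largest at 5.92, passed the limma adjusted p. All Brg1 cKO values lay above all wild-type values for 10 of the 15, beside 8.46% of all genes. Cd163, Cx3cr1, Itgam and Mrc1 differed little, by 0.02, 0.07, 0.11 and 0.38, and Cx3cr1 was lowest in Brg1 cKO replicate 2, at 4.94. The summed intensity of the 15 markers was 2634 to 3465 in wild type and 4919 to 13020 in Brg1 cKO. Their median shifts were 0.56, 1.63 and 1.01 in the Brg1 cKO arrays, beside 0.47 for wild-type replicate 3. At the median of these markers, replicate 2 was thus the highest and replicate 1 the lowest Brg1 cKO array too. Neutrophil markers summed to 498.5 to 974.2 in wild type and 7075 to 22900 in Brg1 cKO, mostly through S100a8 and S100a9, which keratinocytes also make. These 2 passed the limma adjusted p (0.0181 and 0.00935). Of 11 neutrophil markers, 8 had positive differences and 3 negative ones. Csf3r differed by 2.14 without overlap (adjusted p = 0.127), and Ngp by 1.29 and Cxcr2 by 1.19 with overlap. The negative ones were Ltf (-0.51), Mpo (-0.09) and Elane (-0.07). Mpo and Elane, which define immature neutrophils, stayed below 3 log2 units in all arrays, at the low end. Vascular endothelial markers were shifted by 0.66 in wild-type replicate 3 and 1.14 in Brg1 cKO replicate 2, with 0 of 7 past the test. Skeletal muscle markers had shifts of 0.84 in wild-type replicate 3 and -0.54, 0.67 and 0.50 in the Brg1 cKO arrays. Cornified epidermis markers had shifts of 0.21, 0.98 and 0.16 in Brg1 cKO and -0.49 in wild-type replicate 3. Of 8 measured, 5 had positive differences, and Sprr1b among these passed the limma adjusted p. The 3 negative ones were Calm4 (-0.82), Krt1 (-0.60) and Krt10 (-0.37). Retina markers had shifts of 0.71, -0.53 and 0.12 in Brg1 cKO, the lowest in replicate 2. The part of these cell types and tissues in the result was not tested.

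T and NK cells are the usual sources of interferon gamma. Of 11 measured markers of these cells, 0 passed the limma adjusted p, and 1, Nkg7, had an unadjusted p under 0.05, with a lower mean in Brg1 cKO. Their median difference was 0.04, with 8 of 11 wild-type means below the low end, where a change could hardly be detected. Their summed intensity was 391.8 to 517.1 in wild type and 374.3 to 506 in Brg1 cKO. Most of this sum came from Prf1, which differed by -0.23 with overlapping groups. The sum therefore says little about the dimmer markers. Cd3e stayed between 3.04 and 3.72 in the 6 arrays, near the low end. B cell markers had a median of -0.10, with 4 of 5 wild-type means below the low end. Of 5 dendritic cell markers the median was 0.02, also with 4 of 5 wild-type means below the low end. Itgax among them, an integrin that macrophages and neutrophils also carry, rose by 1.71 (limma adjusted p = 0.0288). Ccr9 went the other way, by -1.08 (limma adjusted p = 0.284), with all Brg1 cKO values below all wild-type values. Flt3, Xcr1 and Cd209a differed by 0.02, 0.08 and -0.04.

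Other genes of the pathway had smaller differences at the median. Of 56 listed genes that are no members, 43 were measured, and 0 passed the limma adjusted p (7 had an unadjusted p under 0.05). Of these 7, 6 were higher, where 5.56% of all genes were, and 1 was lower. Positive differences were found for 33 of 43, beside 52.9% of all genes, and the median was 0.25. Among 8 interferon ligand genes, all read near the low end, with a median of -0.02. Ifnb1, the interferon beta gene, read 2.89, 3.17 and 2.94 in wild type against 3.28, 3.29 and 3.25 in Brg1 cKO, and Ifng read 2.40, 2.68 and 2.73 in wild type against 2.56, 2.71 and 2.42 in Brg1 cKO. All Brg1 cKO values of Ifnb1 lay above its wild-type values, by less than 0.5 log2 units, and those of Ifng overlapped. At this brightness a change of the ligands could hardly be detected. The receptor chains Ifnar1, Ifnar2, Ifngr1 and Ifngr2 differed by 0.25, 0.03, 0.31 and -0.24, with 95% intervals that together span -0.99 to 0.82. The kinases Jak1 and Tyk2 differed by 0.41 each. Socs3, a feedback inhibitor of cytokine receptors, was the only one of the 43 past the study's rule upward, beside 2.53% of all genes. It read 7.21, 7.06 and 7.74 in wild type against 8.89, 10.08 and 8.54 in Brg1 cKO, with a difference of 1.83 (SE 0.41, limma adjusted p = 0.173). Irf4, a factor of lymphocytes and pigment cells, was the only one past the rule downward, beside 1.84% of all genes. Its values were 5.65, 5.08 and 5.61 in wild type against 4.41, 4.73 and 4.68 in Brg1 cKO. Counts of 1 of 43 are close to these shares. Socs1, another feedback inhibitor, read between 2.69 and 3.09 in all arrays, near the low end. Of 13 sensors and adaptors, Tlr2 and Myd88, a Toll-like receptor and the adaptor of most of them, differed by 1.6 (limma adjusted p = 0.33) and 1.30 (adjusted p = 0.473). Sting1, the adaptor of cytosolic DNA sensing, differed by 1.05 (adjusted p = 0.517). All Brg1 cKO values of these 3 genes lay above all wild-type values.

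**Figure D5:**
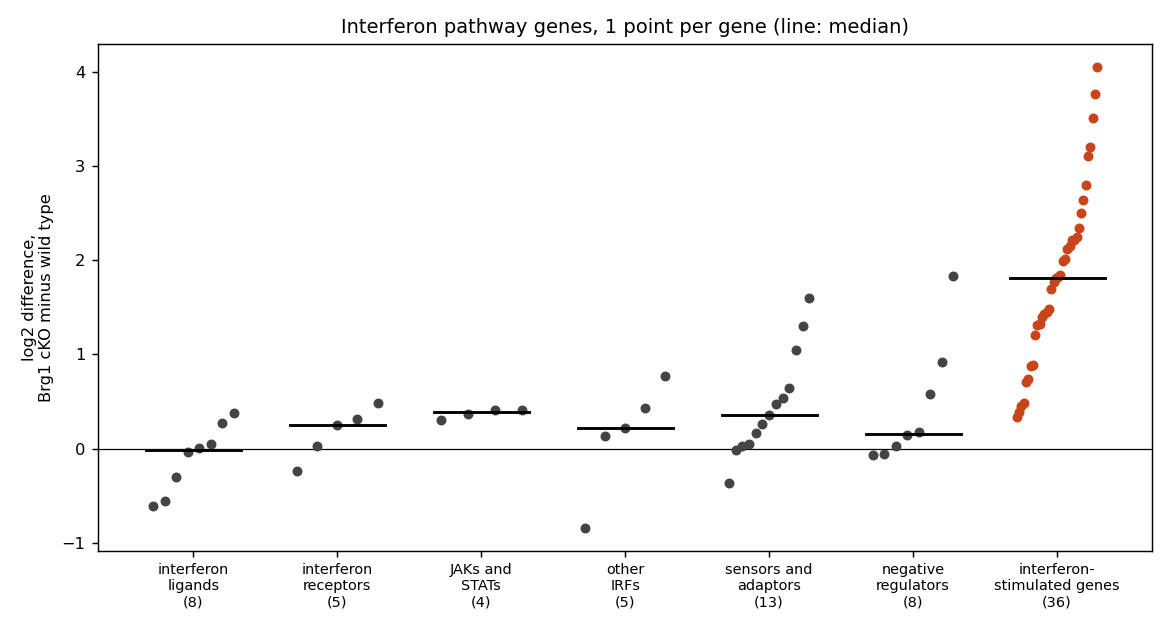
Log2 difference between Brg1 cKO and wild-type eyeballs for genes of the interferon pathway by role, with 1 point per gene, the number of genes in parentheses and a line at the median. Medians of the upstream groups lie between -0.02 for ligands and 0.39 for kinases and STATs, and the interferon-stimulated genes lie at 1.81.

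The probe sets of the targeted gene did not settle the labels. Smarca4 read 10.11, 9.82 and 9.81 in wild type against 10.35, 9.93 and 9.98 in Brg1 cKO on its brighter probe set (difference 0.18, SE 0.19, limma adjusted p = 0.866). The dimmer one read 9.21, 8.37 and 8.67 against 7.82, 7.79 and 8.55 for Brg1 cKO (-0.70, SE 0.30, adjusted p = 0.598), with overlapping groups. It is not known here whether the probes lie in the deleted part, and the eyeball holds much tissue outside the Le-Cre lineage. Median intensities were 169.13 to 185.49 per array, and no array was a near copy of another. Brg1 cKO replicate 1 came from a male pup by Xist and Eif2s3y, and the other 5 from females. The log2 difference between 3′ and 5′ actin controls, which widens as RNA degrades, was 0.934 to 1.12 in wild type and 0.984 to 1.34 in Brg1 cKO, with the highest value in replicate 2. The part of sex and RNA quality in the results was not tested. Markers of lens and retina were above the low end in all arrays, and lens markers had a median difference of -2.03.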

How the data were processed

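Total RNA (50 ng of each eyeball, per the labels) underwent NuGEN amplification and biotin labelling before hybridisation to Affymetrix mouse arrays. The deposited values are linear intensities that the authors processed with RMA. The software was not given in the sources used here. RMA equalises arrays, and dim signals understate folds. Of 22690 rows, 64 controls were left out. The platform annotation gave 1 gene to 20380 probe sets, several to 691 and none to 1555.

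Intensities were converted to log2 and fitted by genotype alone in limma 3.58.1 under R 4.3.3, with Benjamini-Hochberg adjustment over 22626 probe sets and two-sided tests, which were tested on simulated data. With 3 arrays per group, an exact permutation test cannot go below p = 0.1, so none is printed. The number of arrays limits precision. Each role's 3 members with the smallest p, its smallest difference, members past the threshold and members that moved over 1.5 times without 1 array were to be named, and values are given for all 36. Members and lists were chosen with earlier results of these data known. Alternatives were arrays left out, replicate block, scaling, offset, intensity filter, probe set choice and moderation.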

Additional observations from a re-analysis of the deposited data

How the results depend on the processing

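Over 14 alternative settings, 501 of 502 member results kept their direction, and 494 kept their side of the threshold. The exception in direction was Cxcl9, at -0.15 without Brg1 cKO replicate 2. With 1 array left out, the number of members past the adjusted p ranged from 1 to 4, beside 0.113% to 0.694% of all genes called higher. The number past the study's rule ranged from 3 to 14, beside 1.44% to 3.19% of all genes, and 0 pathway genes passed the adjusted p. The median ranged from 1.03 to 2.52 over all members, from 1.57 to 2.62 for the type I class and from 0.86 to 2.56 for the gamma class. With 64 added before log2, which compresses dim values, 0 members passed the adjusted p, 6 passed the study's rule and the median was 0.96. The share of all genes in that setting is not given here. Without wild-type replicate 3 and Brg1 cKO replicate 2 together, chosen after seeing the data, 2 members passed (Mx1 and Rsad2), beside 0.331% of all genes called higher. There 11 members passed the study's rule, beside 2% of all genes, and the median over members was 1.24. Centring and quantile normalization gave medians of 1.77 and 1.83.

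Replicate numbers did not pair the samples across all probe sets. Deviations of same-numbered arrays from their group means correlated there at 0.0597, 0.082 and 0.125, and wild-type replicate 1 correlated best with Brg1 cKO replicate 3. Over the members alone, same-numbered arrays correlated at 0.591, 0.157 and 0.14, and the first of these was the highest of any pair. With the replicate block, 1 member passed, and Mx1 had an adjusted p of 0.026. The share of all genes in that fit is not given here.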
